A study of Arabidopsis thaliana with 24 samples.

Results

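The comparison is of 9-day-old Arabidopsis thaliana seedlings labelled pklpif4, by their label carrying mutations in both PKL and PIF4, with seedlings labelled pif4. By the labels it concerns the pkl mutation in plants already labelled pif4. It rests on 3 libraries of each genotype, 6 of the 24 samples of the series, and on every gene with enough counts, 22130 of the 33612 genes in the count table. Poly(A) RNA was sequenced from whole seedlings, 3 biological replicates per genotype, and the libraries used carry the number 28 in their names. The 3 WT and 3 pkl libraries of the same table served for the shared estimate of spread and for setting the effect of pkl in WT beside its effect in the pif4-labelled plants. The labels used here give no allele, ecotype or growth temperature for any genotype, and the design text states continuous white light. Other differences between the lines therefore cannot be told apart from the pkl mutation. Here, an effect of pkl means the difference between lines with and without that label.

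The protein made from PKL is a CHD3-type chromatin remodeller. Loss of PKL is known for seedlings that keep embryo traits and transcribe seed genes after germination, and the protein has been tied to the histone mark H3K27me3. PIF4 encodes a basic helix-loop-helix transcription factor that binds G-box DNA, is held back by light-activated phytochrome, and promotes elongation growth and auxin synthesis in warmth and shade. In the maturing seed, the factors LEC1, LEC2, FUS3 and ABI3 and the abscisic acid factor ABI5 switch on storage protein, oil body and late embryo genes, which a normal seedling has shut down.

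PKL and PIF4 transcripts did not mark the mutations. PKL (AT2G25170, chromosome 2, 10713807 to 10723986 on TAIR10) was at 94.0, 93.4 and 87.9 CPM (counts normalised to the size of the library) in the pif4-labelled libraries and at 102, 103 and 107 in the pklpif4-labelled ones, a log2 change of 0.18 ± 0.04 (SE, adjusted p = 7.325e-06). Its gene model overlaps AT2G25169 and AT2G25171, so some reads could belong to either. PIF4 (AT2G43010, chromosome 2, 17886427 to 17889050) was at 178, 172 and 172 CPM in the pif4-labelled libraries and at 149, 149 and 147 in the pklpif4-labelled ones, above the mean of 100.4 CPM in WT. The expression of PIF4 as measured over the whole gene therefore goes against a loss of transcript, and the 2 groups are called pif4-labelled and pklpif4-labelled throughout. HFR1 and HB-2, shade-response genes known as targets of PIF factors, were at 85.2 and 35.1 CPM in WT. In the pif4-labelled libraries they were at 12.7 and 11.7 CPM, and in the pklpif4-labelled ones at 12.4 and 11.2 CPM, with no detected difference between the last groups (adjusted p = 0.725 and 0.456).

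Total counts were 40168802 to 47237160 in the pif4-labelled libraries and 38675068 to 48991932 in the pklpif4-labelled ones. On the first 2 principal components of the 12 libraries, which held 48.1% and 21.7% of the variance, the replicates of each genotype lay together and no library stood apart from its group. Photosystem genes summed to 70280.0 to 86700.0 CPM and root markers to 260.4 to 337 CPM over the 6 libraries, so leaf and root were both present. At an adjusted p under 0.05 by edgeR's quasi-likelihood test with Benjamini-Hochberg adjustment, used for every adjusted p given here, 11099 genes (50.2%) differed, 5636 higher (25.5%) and 5463 lower (24.7%) in the pklpif4-labelled libraries. With so many calls at this depth, a call alone says little of size. Genes called and at least 2-fold higher numbered 1260 (5.69%) and those at least 2-fold lower 809 (3.66%). At 8-fold or more the numbers were 358 higher (1.62%) and 98 lower (0.443%). The 4 lists of seed genes, with 14, 13, 20 and 18 tested members, held 44 of those 358 genes and 0 of the 98. Some of the 44 passed the filter through the pklpif4-labelled group, where they were higher, so this count is no independent support. The RNA came from whole seedlings, so fewer cells of a type and less RNA per cell cannot be told apart for any gene below.

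The promoter stretches of 6 seed genes are shown because these genes carry the main result, a rise of seed storage, oil body and late embryo genes. Each is the 250 bases before the gene start in RefSeq on assembly TAIR10.1, 5′ to 3′ on the gene's strand: CRA1 (chr5:17758337-17758586, minus strand), CRU3 (chr4:14087306-14087555, plus strand), SESA5 (chr5:22239188-22239437, minus strand), PAP85 (chr3:8013942-8014191, minus strand), OLEO1 (chr4:12900180-12900429, plus strand) and LEA4-5 (chr5:2090431-2090680, minus strand). Capitals mark the RY core CATGCA, the element bound by ABI3-type factors, and the ABRE core ACGTG, the element bound by ABI5-type factors, each searched on both strands with overlapping matches counted.

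CRA1: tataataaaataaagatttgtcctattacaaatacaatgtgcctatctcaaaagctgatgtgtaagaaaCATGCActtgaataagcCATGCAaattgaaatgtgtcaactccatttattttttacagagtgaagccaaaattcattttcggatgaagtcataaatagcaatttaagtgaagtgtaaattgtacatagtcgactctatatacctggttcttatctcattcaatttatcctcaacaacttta
CRU3: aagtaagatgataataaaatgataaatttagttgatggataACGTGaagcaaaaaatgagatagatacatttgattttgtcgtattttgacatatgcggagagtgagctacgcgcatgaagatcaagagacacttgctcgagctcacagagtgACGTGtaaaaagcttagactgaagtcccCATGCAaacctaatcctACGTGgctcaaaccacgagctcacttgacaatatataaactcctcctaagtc
SESA5: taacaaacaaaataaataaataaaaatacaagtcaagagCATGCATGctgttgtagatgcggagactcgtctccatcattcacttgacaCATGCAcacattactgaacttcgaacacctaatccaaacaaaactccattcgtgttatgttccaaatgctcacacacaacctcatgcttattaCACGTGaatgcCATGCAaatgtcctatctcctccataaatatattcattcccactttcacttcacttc
PAP85: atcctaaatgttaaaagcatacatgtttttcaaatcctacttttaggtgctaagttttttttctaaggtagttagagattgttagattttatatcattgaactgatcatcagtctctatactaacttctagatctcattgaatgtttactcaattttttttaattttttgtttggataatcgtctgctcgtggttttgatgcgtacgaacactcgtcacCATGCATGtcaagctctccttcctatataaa
OLEO1: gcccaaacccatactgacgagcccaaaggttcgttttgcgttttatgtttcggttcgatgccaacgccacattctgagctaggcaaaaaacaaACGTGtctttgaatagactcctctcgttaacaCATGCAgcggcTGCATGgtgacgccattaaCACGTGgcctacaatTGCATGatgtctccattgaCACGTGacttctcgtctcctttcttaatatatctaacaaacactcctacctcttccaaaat
LEA4-5: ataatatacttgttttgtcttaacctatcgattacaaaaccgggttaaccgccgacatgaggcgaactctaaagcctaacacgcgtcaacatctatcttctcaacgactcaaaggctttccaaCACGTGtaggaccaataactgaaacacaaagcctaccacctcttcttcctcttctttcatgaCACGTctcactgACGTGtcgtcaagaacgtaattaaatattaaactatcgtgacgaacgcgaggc

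CRA1 and PAP85 held 2 RY cores each in these stretches and no ABRE core, CRU3 held 1 RY core and 3 ABRE cores, and SESA5 held 4 and 2. OLEO1 held 3 RY cores and 5 ABRE cores, and LEA4-5 held 4 ABRE cores and no RY core. In these counts a CACGTG gives 2 ABRE cores and a CATGCATG 2 RY cores, so some cores share a stretch. Over windows of 250 bases before to 50 after the gene start, 11 of the 13 seed storage genes (84.6%) had an RY core, against 9.03% of the 21694 tested genes with a window. Of the 18 late embryo genes, 16 (88.9%) had an ABRE core, against 6097 of all 21694. Among genes at least 8-fold higher in the pklpif4-labelled libraries, 30.2% had an RY core and 51.9% an ABRE core, and 26.2% had the G-box CACGTG, which contains an ABRE core, against 8.77% of all. An RY core was in 135 of 788 windows of genes at least 2-fold lower and in 210 of 1205 windows of genes at least 2-fold higher. A match is a description of letters, not a binding site.

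Seed storage protein genes were much higher in the pklpif4-labelled seedlings. Their summed level was 48.5 to 52.4 CPM in the pif4-labelled libraries and 4218 to 4276 CPM in the pklpif4-labelled ones, against means of 73.5 CPM in WT and 75.0 CPM in pkl. All 13 listed genes were tested and called higher, against 25.5% of all genes. Their median log2 change was 6.49 (5.92 where genes at 0 are set to their bound), against 0.01 over all genes tested. For 6 of the 13, the pif4-labelled libraries held at most 6 counts together, so these passed the filter through groups where they were higher and their calls are no independent support.

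CRA1 (AT5G44120, chromosome 5, 17756264 to 17758288), encoding a cruciferin globulin, was at 37.6, 38.1 and 40.5 CPM in the pif4-labelled libraries and at 1915, 1876 and 1893 in the pklpif4-labelled ones. The groups lay far apart, and the log2 change was 5.61 ± 0.03 (adjusted p = 1.823e-115). In WT and pkl the means were 30.8 and 38.3 CPM, so the level of the pklpif4-labelled libraries was found in none of the other genotypes. CRU3 (AT4G28520, chromosome 4, 14087556 to 14089796), another cruciferin, was at 1.48, 1.85 and 1.76 CPM against 1189, 1182 and 1207. Its log2 change of 9.46 ± 0.05 (adjusted p = 1.668e-130) stood beside a fall from 16.7 CPM in WT to 1.12 in pkl.

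SESA5 (AT5G54740, chromosome 5, 22238358 to 22239187), a seed albumin, was at 0.0856, 0.126 and 0.149 CPM in the pif4-labelled libraries and at 569, 568 and 544 in the pklpif4-labelled ones (log2 change 12.17 ± 0.08, adjusted p = 3.177e-107). PAP85, a vicilin-like globulin, was at 3.08, 3.29 and 3.52 CPM against 302, 295 and 292 (6.49 ± 0.05, adjusted p = 1.292e-107). Both groups were tight for each gene, and neither gene was higher in pkl than in WT. The other albumins SESA1 to SESA4 lie side by side on chromosome 4 and are close copies, so reads could be divided among them. SESA1 had 0 counts in the pif4-labelled libraries and 18.5 CPM in the pklpif4-labelled ones, at least 413-fold higher, and SESA3 was at least 174-fold higher. SESA2 went from 6 to 17479 counts, a ratio of 2953 (95% interval 1010 to 14330, counting error only). On a scale that allows levels of different genes to be compared, SESA5 and CRU3 reached 669.7 and 658 FPKM, the authors' values scaled by exon length and depth, below CRA1 at 1050.0 and above SESA2 at 178 and PAP85 at 177.

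**Figure D1:**
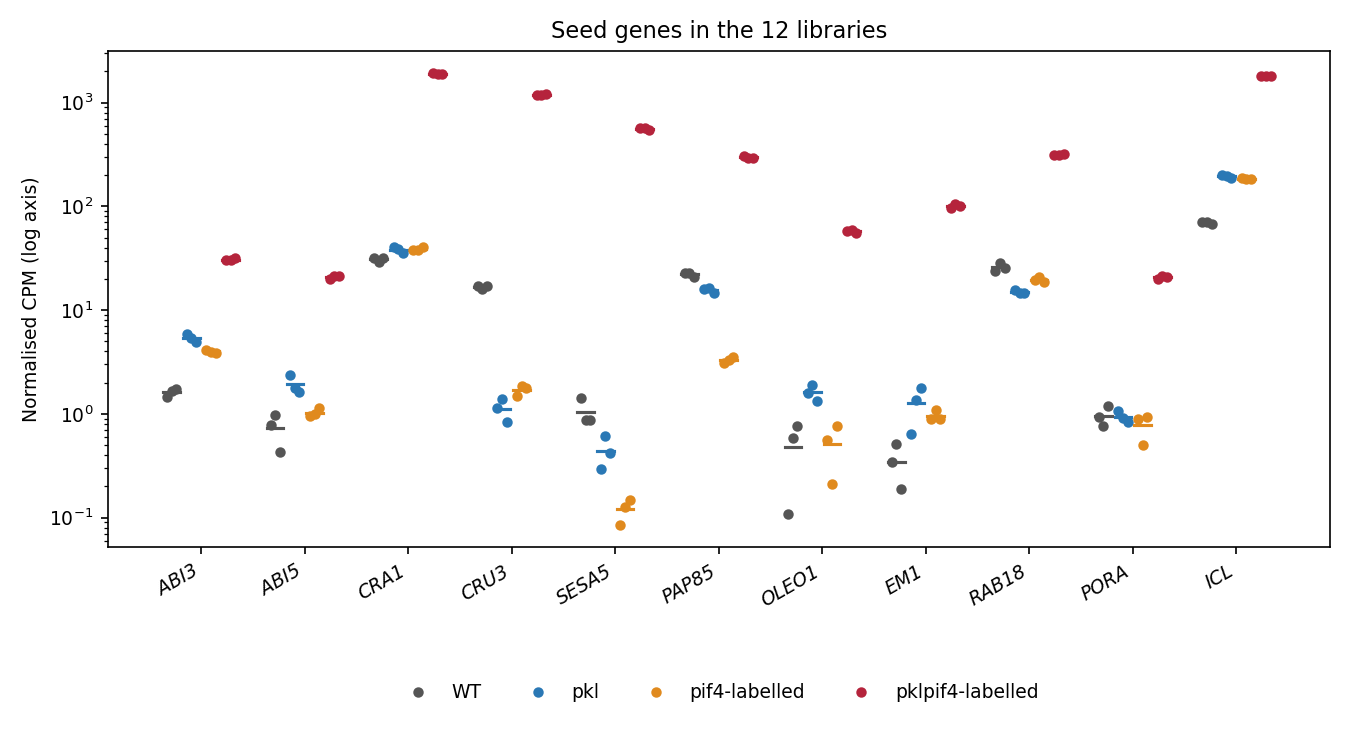
Normalised CPM on a log axis of 11 seed and seedling-establishment genes in the 12 libraries, with 1 point per library and a bar at each group's mean. The pklpif4-labelled libraries lie above every other library for each gene, with CRA1 at 1876 to 1915 CPM against 37.6 to 40.5 in the pif4-labelled libraries.

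Late embryo genes, most of them encoding hydrophilic proteins that protect cells in the dry seed, rose with the storage proteins. All 18 listed genes were tested and called higher, against 25.5% of all genes, and 1 of the 18 rose from 0 counts. Their median log2 change was 4.84. Their summed level went from 84.0 to 87.6 CPM in the pif4-labelled libraries to 1669 to 1678 in the pklpif4-labelled ones, and was 64.3 CPM in WT and 112 in pkl. EM1, a classic marker of seed drying, was at 0.899, 1.096 and 0.893 CPM against 96.9, 106 and 101 (6.71 ± 0.14, adjusted p = 1.18e-22). RAB18, a dehydrin induced by abscisic acid, was at 19.3, 20.9 and 18.8 CPM against 316, 314 and 320.0 (4.01 ± 0.04, adjusted p = 6.44e-98). No pklpif4-labelled library came near the pif4-labelled range for either gene. ATECP31 had 0 counts in each pif4-labelled library and 69.9, 65.7 and 62.2 CPM in the pklpif4-labelled ones, at least 1483-fold higher, while it was at 0.167 CPM in WT and 0.0278 in pkl. ATECP31 and AT3G22490, the latter with 15 counts over the pif4-labelled libraries, passed the filter through the pklpif4-labelled group. Their calls are no independent support. The smallest rises were those of M17, from 4.63 to 25.6 CPM, and of PER1, a seed peroxiredoxin, from 10.9 to 86.8 CPM.

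Oil body genes rose. Of 20 tested genes for oil bodies and storage lipid, 15 were higher and 4 lower, with a median log2 change of 3.66, and 3 of the 20 had at most 6 counts in the pif4-labelled group. HSD1, OLEO3, ATS1, AT3G18570 and ATPXG2 passed the filter through the pklpif4-labelled group, so their calls are no independent support. OLEO1, the main seed oleosin that coats oil bodies, was at 0.556, 0.211 and 0.769 CPM against 58.3, 59.8 and 54.9 (6.84 ± 0.28, adjusted p = 3.411e-09). OLEO2 was at 3.27 to 3.81 CPM over the 3 pif4-labelled libraries against 72.8, 76.5 and 76.9 (4.44 ± 0.08, adjusted p = 3.097e-73). The ranges were far apart for each oleosin, although the OLEO1 gene model overlaps AT4G25150 on the other strand. ATPXG2, a caleosin, went from 2 to 2118 counts, a ratio of 1074 (95% interval 192 to 42450), and both counts of the low group were in pif4 replicate 1. The desaturase genes FAD2 and FAD3, active in all tissues, fell by 0.07 and 0.24 (log2), as did ROD1 by 0.48 and BCCP2, a plastid fatty acid synthesis gene, by 0.67. SUS3, a sucrose synthase, rose from 13.4 to 40.5 CPM, and its relative SUS2 was at 2.18 and 2.92 CPM and did not pass (adjusted p = 0.0778, and 0.0349 and 0.0277 without pif4 or pklpif4 replicate 3).

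Genes that break down seed oil in the young seedling were also higher. This list of 17 was chosen after the level of ICL had been seen. Of its genes, 14 were called higher and 1 lower (82.4% and 5.9%, against 25.5% and 24.7% of all genes). ICL (AT3G21720, chromosome 3, 7652487 to 7656011), isocitrate lyase of the glyoxylate cycle, was at 188, 183 and 186 CPM in the pif4-labelled libraries and at 1794, 1803 and 1794 in the pklpif4-labelled ones (3.28 ± 0.02, adjusted p = 1.823e-115). Replicates differed by far less than the groups, and WT and pkl were at 69.7 and 196 CPM. MLS, the malate synthase of the same cycle, was at 38.8, 38.9 and 34.7 CPM against 287, 298 and 288 (2.96 ± 0.04, adjusted p = 1.752e-89). Beta-oxidation and gluconeogenesis genes rose less, PKT3 from 238 to 443 CPM, MFP2 from 74.8 to 133 and PCK1 from 368 to 552. ACX4 fell by 0.10 on the log2 scale.

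Among the seed master regulators, 5 of 14 tested genes were higher (35.7%, against 25.5% of all genes) and none lower, and 5 of the 19 listed were not tested. ABI3 (AT3G24650, chromosome 3, 8997370 to 9001063) was at 4.15, 3.98 and 3.87 CPM in the pif4-labelled libraries and at 30.3, 30.1 and 31.6 in the pklpif4-labelled ones (2.94 ± 0.10, adjusted p = 4.65e-48), against 1.62 CPM in WT and 5.40 in pkl. ABI5 (AT2G36270) was at 0.963, 0.990 and 1.14 CPM against 20.2, 21.1 and 21.4 (4.34 ± 0.16, adjusted p = 3.953e-47). Neither gene's groups overlapped. ABI4 rose from 0.0943 to 1.46 CPM and the seed heat shock factor HSFA9 from 0.0638 to 1.42 CPM (4.50 ± 0.64, adjusted p = 1.848e-09), while EEL, a relative of ABI5, rose by 0.55 on the log2 scale. ABI4 and HSFA9 had only 13 and 8 counts over the pif4-labelled libraries and 2 to 7 in WT and in pkl, so they passed the filter through the pklpif4-labelled group and their calls are no independent support. Without pif4 replicate 3 the log2 change of HSFA9 was 5.89. FUS3 was at 0.690 ± 0.024 and 0.604 ± 0.116 CPM (SD, n = 3; edgeR adjusted p = 0.726), and WRI1 and DOG1 did not pass either (adjusted p = 0.289 and 0.176). LEC1 had 2 and 0 counts and LEC2 had 0 and 18 counts, too few for the test.

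Abscisic acid genes were mostly higher, with 13 of 19 tested higher and 2 lower (68.4% and 10.5%, against 25.5% and 24.7% of all genes). Their median log2 change was 0.51. Among the 13, NCED5 had 2 counts over the pif4-labelled libraries and 53 over the pklpif4-labelled ones. For NCED9 these counts were 26 and 74. NCED5 and NCED9 passed the filter through the pklpif4-labelled group, so their calls are no independent support. LTI65, a classic abscisic acid response gene also called RD29B, was at 17.9, 19.5 and 20.8 CPM against 129, 134 and 134 (2.77 ± 0.05, adjusted p = 1.42e-73). AHG1, a seed phosphatase that restrains abscisic acid signalling, was at 0.278, 0.295 and 0.372 CPM against 12.9, 14.7 and 13.7 (5.45 ± 0.23, adjusted p = 4.907e-42). The groups were apart for both genes. The related phosphatases HAI2 and HAI3 rose by 2.85 and 3.59 on the log2 scale, and ABA1, an abscisic acid synthesis gene, rose from 379 to 491 CPM. NCED3, the synthesis gene known for drought, fell from 5.01 to 2.79 CPM and PP2CA, another phosphatase of the family, from 40.3 to 30.7. Of 21 gibberellin genes, 8 were higher and 3 lower (38.1% and 14.3%, against 25.5% and 24.7% of all genes). Without pklpif4 replicate 2, 1 was lower. RGL2, the DELLA repressor known for blocking germination, was at 7.36, 7.29 and 7.25 CPM against 34.0, 32.9 and 32.8 (2.19 ± 0.10, adjusted p = 8.286e-40), RGL3 rose by 1.39 and GA3, a synthesis gene, by 1.01, while RGA1 and GAI, the DELLA genes of the growing plant, did not pass (adjusted p = 0.672 and 0.231).

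Markers of the other seed tissues moved in part with these genes. The 11 endosperm markers summed to 5.73 to 5.83 CPM in the pif4-labelled libraries and 26.3 to 31.4 CPM in the pklpif4-labelled ones. Of 7 tested, 5 were higher and 2 lower (71.4% and 28.6%, against 25.5% and 24.7% of all genes). EPR1, a cell wall protein of the germinating endosperm, rose from 1.43 to 19.3 CPM (3.75 ± 0.16, adjusted p = 5.389e-42) and made up most of the rise of the sum. PHE1, an imprinted endosperm gene, was at 0.0428, 0.274 and 0 CPM against 2.42, 2.81 and 2.92, while pkl was at 2.48 CPM. Its log2 change was 4.58, and 6.72 without pif4 replicate 2. MPC and YUC10 had 0 counts in all 12 libraries. The 14 seed coat markers included 9 with too few counts to test, TT1 at 0 in every library and BAN at 0.0165 and 0.00869 CPM, and their sum went down from 409 to 366 CPM. Their part in the rise of the seed genes was not tested.

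Several small heat shock proteins, a class of which some accumulate in maturing seeds, rose as well. Of 16 tested heat shock genes, 10 were higher and 3 lower (62.5% and 18.8%, against 25.5% and 24.7% of all genes). Without pklpif4 replicate 1, 1 was lower. The median log2 change was 0.55. HSP17.6A was at 0.257, 0.295 and 0.298 CPM in the pif4-labelled libraries and at 27.3, 29.2 and 28.9 in the pklpif4-labelled ones (6.64 ± 0.17, adjusted p = 4.479e-60), against 2.69 CPM in WT and 3.08 in pkl. HSP17.4 was at 1.46, 0.927 and 0.993 CPM against 12.3, 11.8 and 12.7 (3.44 ± 0.16, adjusted p = 1.8e-38). Both rises took the genes above every WT and pkl library, although HSP17.4 overlaps AT3G46220 on the other strand. HSP70 rose from 106 to 157 CPM and HSP90.1 from 49.5 to 71.3. The heat factors HSFA3 and HSFA7A were lower, by -0.55 and -0.28 on the log2 scale, and so was HSP18.2, by -0.97, but the call of HSP18.2 was lost without pif4 replicate 3 or pklpif4 replicate 1 or 2 (adjusted p = 0.0621 to 0.113) and that of HSFA7A without pklpif4 replicate 1 (0.0532). HSFA2, the main factor of acquired heat tolerance, did not pass (1.45 and 1.88 CPM, adjusted p = 0.191, and 0.044 without pif4 replicate 2), nor did HSP17.6II (adjusted p = 0.295).

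Photosynthesis genes were slightly higher in the pklpif4-labelled seedlings, opposite to the effect of pkl in WT. Of 27 tested nuclear genes for the photosystems and the Rubisco small subunit, 24 were higher and 1 lower than in the pif4-labelled libraries. These were 88.9% and 3.7%, against 25.5% and 24.7% of all genes, and the median log2 change was 0.28. In pkl against WT, 27 of the same 27 were lower, with a median of -0.47, and the interaction, the log2 change seen here minus that of pkl against WT, was positive and called for all 27, where 15.3% of all genes were called positive. CAB2, a chlorophyll-binding antenna protein of photosystem II, was at 2494, 2492 and 2543 CPM against 4491, 4502 and 4532 (0.85 ± 0.02, adjusted p = 2.578e-72). LHCB3, another antenna protein, was at 1322, 1346 and 1363 CPM against 2403, 2352 and 2341 (0.82 ± 0.02, adjusted p = 1.194e-70). For both genes all 3 pklpif4-labelled libraries were also above WT, at means of 3246 and 2051 CPM, and pkl was below it, at 2176 and 1362. RBCS1B fell by 0.23, and PSBR and PSBQ-2 did not pass (adjusted p = 0.716 and 0.0733, the second under 0.05 in 6 of 21 alternatives). CAB1, CAB2 and CAB3 and the Rubisco genes are close copies, so their reads could be divided among them. Scaled by library totals alone, the median of all genes moved by less than 0.1 in every contrast, and for the interaction it was -0.08.

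Chlorophyll synthesis went the same way, with 11 of 14 genes higher and 1 lower (78.6% and 7.1%, against 25.5% and 24.7% of all genes). In the interaction 14 of 14 were called positive, against 15.3% of all genes. Most rises were small, such as HEMA1, the first enzyme of the pathway, from 577 to 698 CPM. PORA, the protochlorophyllide reductase of dark-grown seedlings, stood out at 0.899, 0.506 and 0.943 CPM against 19.8, 21.4 and 21.1 (4.74 ± 0.17, adjusted p = 1.365e-48). No library of any other genotype exceeded 1.19 CPM for PORA, and its change between pkl and WT was -0.01. CHLM fell by 0.12 on the log2 scale.

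**Figure D2:**
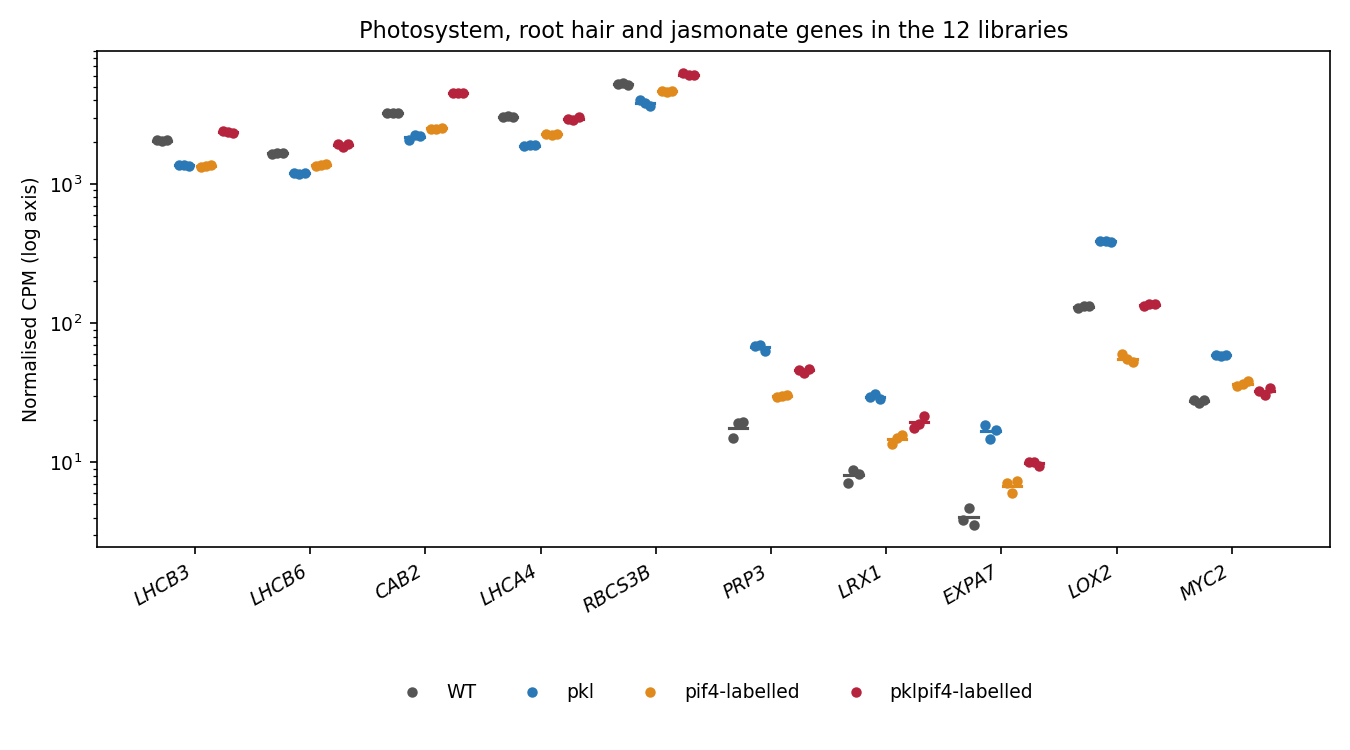
Normalised CPM on a log axis of 10 photosystem, root hair and jasmonate genes in the 12 libraries, with 1 point per library and a bar at each group's mean. Photosystem genes are lower in pkl than in WT and higher in pklpif4-labelled than in pif4-labelled libraries, as for LHCB3 at 2051, 1362, 1343 and 2365 CPM in WT, pkl, pif4-labelled and pklpif4-labelled libraries.

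Several root hair genes that rose with pkl in WT rose less in the pif4-labelled background. EXPA7, an expansin of root hairs, was at 7.06, 5.98 and 7.35 CPM in the pif4-labelled libraries and at 10.11, 10.13 and 9.46 in the pklpif4-labelled ones (0.55 ± 0.11, adjusted p = 1.066e-05), against a change of 2.06 between WT and pkl. PRP3, a root hair wall protein, was at 29.7, 29.8 and 30.3 CPM against 46.1, 44.1 and 47.1 (0.61 ± 0.06, adjusted p = 7.565e-17), against 1.93 in WT. The groups did not overlap for either gene, and the interaction was -1.51 and -1.32 (adjusted p = 1.748e-14 and 2.369e-26). Over the 18 tested root and root hair markers, 5 were higher and 7 lower (27.8% and 38.9%, against 25.5% and 24.7% of all genes). Their sum went from 326 to 337 CPM down to 260.4 to 273 CPM, and 13 were negative and called in the interaction, where 16.5% of all genes were. The markers include the iron genes IRT1, FRO2 and FRU, whose falls (next paragraph) weigh heavily in the sum. The sum therefore does not show a fall of the other root markers. SHV2 and RHD6 did not pass (adjusted p = 0.131 and 0.125), and whether the share of root in the seedlings differed was not tested.

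Most iron uptake genes, which act in the root epidermis, fell steeply. IRT1 (AT4G19690, chromosome 4, 10707426 to 10709015), the main iron transporter of the root, was at 53.4, 49.9 and 47.1 CPM in the pif4-labelled libraries and at 3.52, 2.69 and 3.86 in the pklpif4-labelled ones (-3.91 ± 0.09, adjusted p = 2.543e-66). It was at 14.6 CPM in WT and 16.6 in pkl, so the pif4-labelled libraries were the highest and the pklpif4-labelled ones the lowest of the 4 genotypes. FRO2, the ferric reductase that works with IRT1, was at 27.1, 24.9 and 26.1 CPM against 3.999, 4.37 and 3.86 (-2.67 ± 0.10, adjusted p = 6.547e-46). FRU, the master regulator of iron uptake also called FIT, fell from 4.76 to 2.30 CPM, BHLH100 from 3.78 to 0.756, bHLH38 from 6.32 to 2.22 and CYP82C4, which makes an iron-binding coumarin, from 4.04 to 0.207. In a list of 22 iron genes chosen after IRT1 had been seen, 15 were lower and 3 higher (68.2% and 13.6%, against 24.7% and 25.5% of all genes). The 3 higher were NRAMP1, OPT3 and HA2. COPT2, a copper transporter, fell from 11.7 to 2.42 CPM.

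Genes for aliphatic glucosinolates, the methionine-derived defence compounds of the cabbage family, fell. Of 16 tested glucosinolate genes, 11 were lower and 2 higher (68.8% and 12.5%, against 24.7% and 25.5% of all genes). Without pif4 replicate 3 or pklpif4 replicate 2, 1 was higher. The median log2 change was -1.07. CYP79F1 (AT1G16410), which commits chain-elongated methionine to the pathway, was at 7.79, 6.78 and 5.63 CPM against 0.0439, 0.0410 and 0.156 (-6.43 ± 0.24, adjusted p = 3.19e-45), and -7.22 without pklpif4 replicate 3. MAM1, a chain elongation enzyme, was at 54.3, 50.1 and 50.9 CPM against 5.32, 6.27 and 5.84 (-3.15 ± 0.06, adjusted p = 8.646e-72), and CYP83A1 fell from 44.8 to 4.32 CPM. The groups were widely separated for each, and all these genes were also lower in pkl than in WT. MYB28 and MYB29, the factors that drive the aliphatic branch, fell by 1.52 and 3.45 (log2), and MYB76, their relative, went from 28 to 0 counts, at least 4.603-fold lower. CYP79F2, the close copy of CYP79F1, fell by 1.00 here and rose by 1.06 with pkl in WT, and reads of the copies could be divided between them. In the indolic branch, CYP83B1 rose from 67.4 to 99.7 CPM and MYB34 from 24.2 to 28.4, the latter not called without pif4 replicate 3 or pklpif4 replicate 2 (adjusted p = 0.0673 and 0.121).

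**Figure D3:**
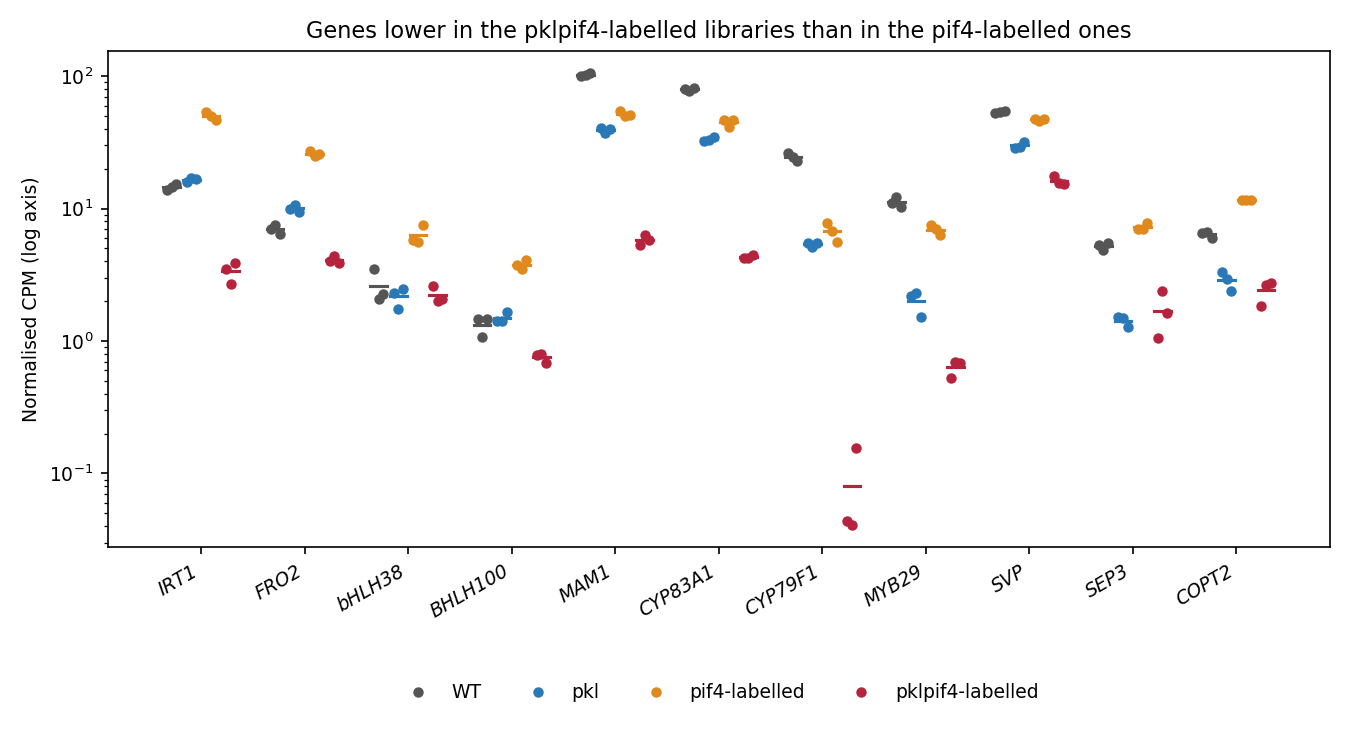
Normalised CPM on a log axis of 11 iron, copper, glucosinolate and MADS-box genes in the 12 libraries, with 1 point per library and a bar at each group's mean. The 3 pklpif4-labelled libraries lie below the 3 pif4-labelled ones for each gene, and for IRT1 the order of means is 3.35, 14.6, 16.6 and 50.1 CPM in pklpif4-labelled, WT, pkl and pif4-labelled libraries.

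Jasmonate genes moved in both directions, within synthesis too. Of 17 tested, 5 were higher and 8 lower (29.4% and 47.1%, against 25.5% and 24.7% of all genes). LOX2, a chloroplast lipoxygenase at the start of synthesis, was at 59.7, 55.3 and 52.2 CPM against 133, 137 and 138 (1.28 ± 0.03, adjusted p = 2.427e-62), and AOC2 rose from 6.996 to 29.7 CPM, while OPR3 and LOX3, also of synthesis, fell by 0.70 and 0.49 (log2). The response genes VSP1 and VSP2 fell by 2.19 and 0.98 (log2) and the repressor JAZ10 by 0.91. MYC2, the central transcription factor, fell from 36.9 to 32.5 CPM, whereas in WT it rose by 1.09 with pkl, and its interaction was -1.28 (adjusted p = 5.735e-30). In all, 12 of the 17 genes were negative and called in the interaction, where 16.5% of all genes were. Of the 17, 2 had at most 6 counts over the pif4-labelled libraries and 1 over the pklpif4-labelled ones.

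Flowering and MADS-box genes were mostly lower, 8 of 11 tested against 2 higher, and 7 of the 18 listed were not tested. SVP, a repressor of flowering, was at 47.9, 46.3 and 47.2 CPM in the pif4-labelled libraries and at 17.5, 15.54 and 15.4 in the pklpif4-labelled ones (-1.54 ± 0.06, adjusted p = 4.881e-46). SEP3, a floral organ gene expressed at low level in seedlings, was at 7.06, 7.08 and 7.79 CPM against 1.05, 2.38 and 1.62 (-2.11 ± 0.18, adjusted p = 8.846e-20). Neither gene's groups overlapped, and both were also lower in pkl than in WT. FLC, the vernalization repressor, fell by 0.51 (not called without pklpif4 replicate 3, log2 -0.36) while its relatives MAF4 and MAF5 rose by 1.42 and 0.83. STM, the meristem homeobox gene, fell from 3.59 to 2.202 CPM, 1 of 2 called lower among 8 tested meristem genes (25.0%, against 24.7% of all genes). Stomatal lineage and trichome markers were lower in 6 of 11 cases (54.5%, against 24.7% of all genes) and higher in none. SPCH, which starts the stomatal lineage, was at 4.24, 2.63 and 4.07 CPM against 1.36, 1.33 and 0.860 (-1.60 ± 0.23, adjusted p = 1.268e-09), and MUTE, TMM and FMA fell by 1.72, 0.87 and 0.79. Their sum went from 44.5 to 45.8 CPM down to 24.1 to 27.2 CPM. Of 7 mitotic markers, 3 were lower (42.9%, against 24.7% of all genes), among them CYCD3;1 by 0.67.

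Among 29 tested growth genes linked to PIF factors, 12 were higher and 6 lower (41.4% and 20.7%, against 25.5% and 24.7% of all genes). IAA29, an auxin-response gene known as a PIF4 target, was at 0.899, 0.737 and 0.546 CPM in the pif4-labelled libraries and at 2.64, 2.13 and 2.43 in the pklpif4-labelled ones (1.702 ± 0.20, adjusted p = 7.561e-13), while WT and pkl were at 6.995 and 10.5 CPM. The groups did not overlap, and both stayed below WT. IAA19, YUC8, an auxin synthesis enzyme, and PIL1 rose by 1.29, 0.86 and 0.82, and XTH15, a wall enzyme, fell by 1.29. Among 21 auxin response and transport genes, 6 were higher and 9 lower (28.6% and 42.9%), for instance LBD16, a lateral root factor, up by 1.26 and the carrier gene PIN3 from 251 to 184 CPM. Without pklpif4 replicate 3, 5 auxin genes were called lower. Of 9 tested flavonoid genes, 3 were higher (33.3%), and TT4, chalcone synthase, was at 29.2, 25.4 and 29.3 CPM against 74.3, 79.5 and 72.0 (1.43 ± 0.05, adjusted p = 1.151e-46). Of 11 salicylic acid genes, 4 were higher and 3 lower (36.4% and 27.3%). EDS16, which makes the precursor, rose from 8.99 to 17.2 CPM. Without pif4 replicate 1, 1 salicylic acid gene was called higher, and without pif4 replicate 3 or pklpif4 replicate 1, 2 were.

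Of 12 tested polycomb, H3K27 and CHD3 genes, 4 were higher and 3 lower (33.3% and 25.0%), near the 25.5% and 24.7% of all genes. Of 11 tested H3K4 methylation genes none was higher and 4 were lower (36.4%). CHR4, a CHD3 relative of PKL, was at 145, 132 and 143 CPM against 86.9, 94.2 and 90.7 (-0.63 ± 0.04, adjusted p = 2.024e-31), with no overlap, and its fall with pkl in WT was -0.55. JMJD5, an H3K27 demethylase gene, fell from 39.7 to 21.9 CPM. The polycomb genes SWN, MSI1 and FIE rose by 0.20 to 0.24, while CLF and EMF2 did not pass (adjusted p = 0.788 and 0.524). SDG25, an H3K4 methyltransferase gene, and the demethylase genes JMJ14 and JMJ18 fell by 0.30, 0.29 and 0.36.

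**Figure D4:**
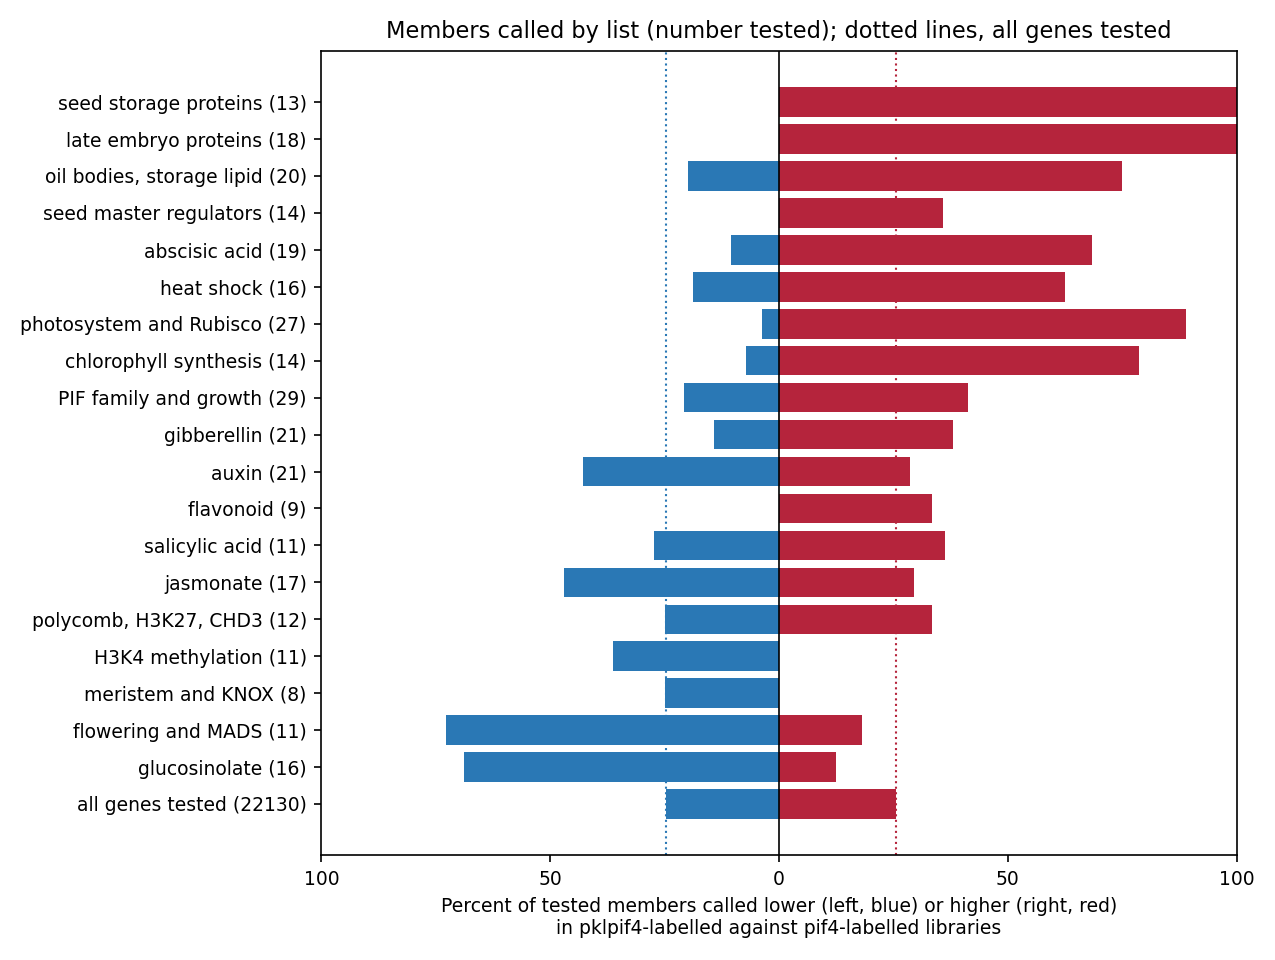
Percent of each list's tested members called higher (right) or lower (left) in the pklpif4-labelled against the pif4-labelled libraries, with the number tested in parentheses. Dotted lines mark all genes tested, 25.5% higher and 24.7% lower, and the seed storage and late embryo lists reach 13 of 13 and 18 of 18 higher. Some members of both lists passed the filter only through groups where they were higher.

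Outside the lists, several of the largest changes were in genes nearly silent elsewhere. MLP31, of the major latex protein family, had 0 counts in the pif4-labelled and pkl libraries and 18.7, 19.7 and 16.03 CPM in the pklpif4-labelled ones, at least 410-fold higher, with 0.270 CPM in WT. AT2G05580, AT4G09595.1 and AtMT4a, a seed metallothionein with a close copy, likewise had 0 counts in the pif4-labelled libraries and were at least 269.9-fold, 203-fold and 102-fold higher. In all, 40 called genes had at most 6 counts over the pif4-labelled libraries and at least 1 CPM on average in the pklpif4-labelled ones. Of these, 12 also had at most 6 counts in WT and in pkl, so they passed the filter through the pklpif4-labelled group. The reverse was seen for 2 genes, AT5G37990 and GolS4. These counts pick genes by their low and high groups, so they are no independent support. AT5G37990 was at 6.78, 7.25 and 7.35 CPM in the pif4-labelled libraries and 0 in each pklpif4-labelled one, at least 157-fold lower. GolS4, a galactinol synthase gene that overlaps AT1G60460, was at least 22.2-fold lower.

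Other steep falls were those of RLP19, a receptor-like protein, from 9.61 to 0.110 CPM (-6.47 ± 0.24), AOP2, which modifies aliphatic glucosinolates, from 2.26 to 0.0718 (-5.00 ± 0.38), AT1G24148 (-4.93 ± 0.23), AT4G21650 (-4.54 ± 0.12), FTM1, a desaturase (-4.32 ± 0.26), and AT5G42530 (-4.01 ± 0.25). The adjusted p of these was between 3.861e-22 and 1.043e-58. A single library moved 2 of the values by over 1.5 times, AOP2 to -5.65 without pklpif4 replicate 3 and AT5G42530 to -4.70 without pklpif4 replicate 1. By difference in CPM, the largest rises were CAB1 (0.36 on the log2 scale), CAB2, CRA1, ICL and RBCS3B, from 4614 to 6106. The largest falls were SAG21, a late embryo type protein of leaves, from 3848 to 2412 CPM, CAT2, a catalase, from 3262 to 2238, NIA2, nitrate reductase, from 4401 to 3468, TIP2, a vacuole water channel, from 2567 to 1728, and TGG1, a myrosinase that cleaves glucosinolates, to 1184 from 2020.0.

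Set beside the effect of pkl in WT, which shares no library with this comparison, part of the response was common and part was not. In pkl against WT, 11858 genes (53.6%) were called. Of the 7688 genes called in both comparisons, 6630 (86.2%) moved in the same direction and 1058 in opposite ones, 539 of them higher in the pklpif4-labelled libraries and lower in pkl. A further 3411 genes were called here and not in pkl against WT, and 4170 the other way round, which does not show that those effects differ. The difference itself was called for 7054 genes (31.9%), 3394 positive and 3660 negative, and for all 1058 genes of opposite direction. For those 1058 the call was nearly fixed in advance, since 2 called effects of opposite sign add up in the difference. Scaled by library totals alone, the split of all called differences was 2391 positive and 5297 negative, so the balance of directions rests on the scaling. Of the 1260 genes at least 2-fold higher, 810 were also called higher in pkl, 69 were called lower and 506 had a positive interaction that was called. Of the 809 at least 2-fold lower, 457 were also lower in pkl, 83 were higher and 380 had a negative interaction. Both sets were chosen by the change seen here, which is a term of the interaction, so their interaction counts are no independent support.

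Among the seed genes, 9 of 13 storage genes and 17 of 18 late embryo genes had a positive interaction that was called. None had a negative one that was called. Of all genes, 15.3% were called positive and 16.5% negative. SESA3 and ATECP31, both called, had 0 counts in the pif4-labelled libraries. SESA2, also called, had 6, so the size of these interactions rests on counts at or near 0. SESA1 and AT1G03890 had 0 counts in both WT and the pif4-labelled libraries, so their interaction could not be judged. For the storage genes, 9 were higher and 3 lower in pkl against WT. AT4G36700 and AT2G28490, vicilin-like genes, rose in both backgrounds, by 2.50 and 2.68 in WT and by 3.58 and 5.15 here. PHE1 rose by 4.74 and 4.58 with no detected difference (interaction -0.16, adjusted p = 0.903), and TGG1 fell by 0.77 in both. At the other end, AT4G29200 rose from 0.0230 to 42.0 CPM with pkl in WT and from 0.144 to 1.597 CPM in the pif4-labelled background (interaction -7.27).

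**Figure D5:**
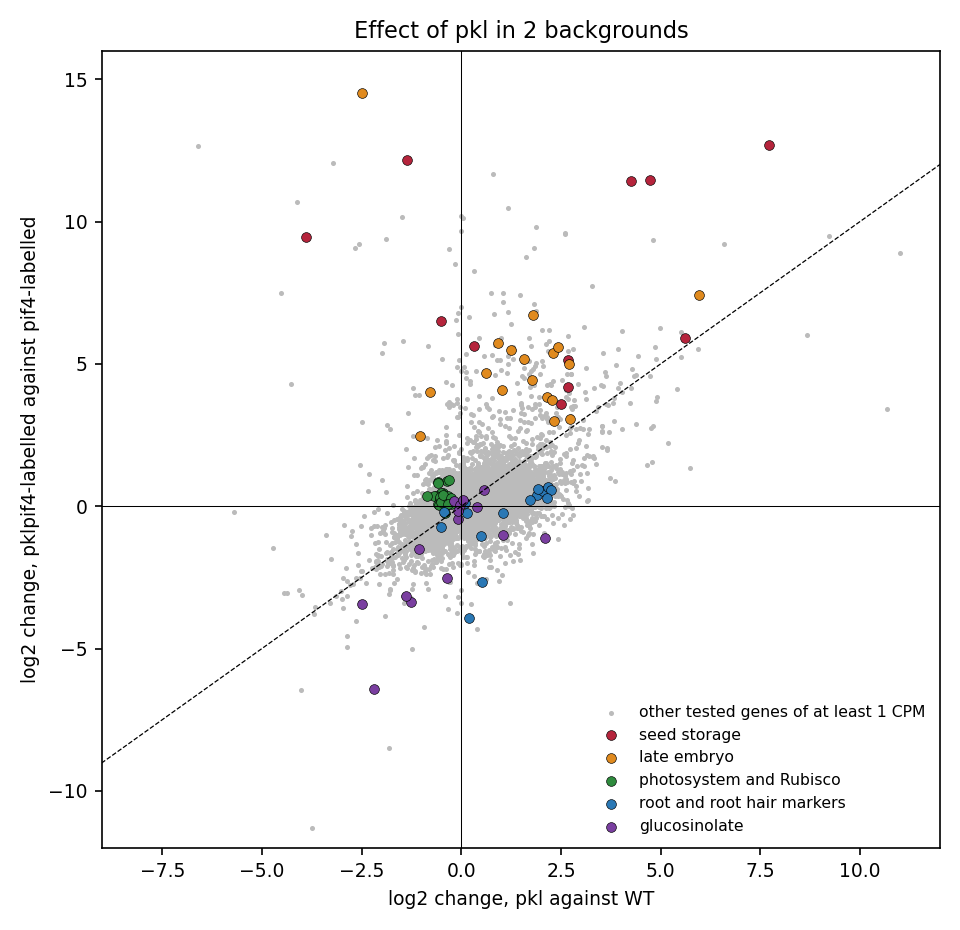
Log2 change of pklpif4-labelled against pif4-labelled libraries (vertical) and of pkl against WT (horizontal) for tested genes with a mean of at least 1 CPM in a pif4-labelled or pklpif4-labelled group, with the dashed line at equal changes. Late embryo and most storage genes lie above the line, photosystem genes lie to the left of 0 and mostly above 0, and most root and root hair markers lie below the line. Values of genes with 0 counts in a group depend on the prior count of the fit.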

How the data were processed

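RNA-seq was done on whole seedlings; fastp, HISAT2 2.1.0, SAMtools 1.6 and the TAIR10 build are named per the submitters' processing notes. The authors deposited raw counts per gene with, per the file headers, exon positions and lengths, and a table of FPKM, used here only to compare levels between genes. Which program counted reads, and with which strand setting, is not given in the sources used here, so reads of overlapping or antisense genes cannot be told apart. The tables named for red light held the same values (0 of 403344 counts differed); the 12 red-light samples were not used here, and which growth condition the values are from rests on the columns' names.

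Genes passing filterByExpr (minimum count 10, minimum total 15) were fitted with edgeR 4.0.16 in R 4.3.3, as 1 model of group means over 12 libraries (TMM normalisation, two-sided quasi-likelihood test in its robust form, adjusted p threshold 0.05). CPM use the TMM factors. The SE is the log2 change divided by the square root of F, not a value edgeR reports. Low counts were mostly even (70.9% to 74.3% of counts of 1 to 8), which happens where the 2 mates are counted singly, so the floor was 6 counts (3 fragments) over a group's 3 libraries; bounds use it, ratios carry exact 95% binomial intervals, and both cover counting error only. Replicate pairs of the 2 groups differed by more than counting noise (chi-square per degree of freedom 3.42 to 3.62). Gene symbols and promoter windows are from RefSeq on TAIR10.1, which 28920 of 33612 identifiers matched; 98.9% of 81578 introns of the count table began and ended as GT-AG on that genome.

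The genes named are PKL and PIF4, the 10 largest rises and falls among called genes of at least 1 CPM whose groups do not overlap, the 5 largest rises and falls in CPM, the 5 largest interactions each way, and leading or defining members of each list. The genes, lists and tests were chosen with earlier results of these data known, and the lists of iron and of oil breakdown genes after seeing these values. Lists were not tested; they are described by counts and medians. Alternatives were RLE factors, library totals, other count filters, DESeq2 1.42.0, limma 3.58.1 (prior count 2), the 6 libraries alone, halved counts, a replicate block and each library left out. The scripts were tested on simulated data.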

Additional observations from a re-analysis of the deposited data

Results flagged for a closer look

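A test of whether the change with pkl differed between the pif4-labelled background and WT called 7054 genes, by edgeR's quasi-likelihood test. The values below are that difference on the log2 scale for the 5 genes most positive and the 5 most negative among called genes of at least 1 CPM in a group, and they depend on the prior count of the fit wherever a group had 0 counts. The positive values were 19.27 for MLP31, 17.03 for ATECP31, 15.28 for AT2G05580, 14.81 for AtMT4a and 13.52 for SESA5. The first 4 had 0 counts in the pif4-labelled libraries, MLP31 and AtMT4a also in pkl, and SESA5 was at 0.120 CPM in the pif4-labelled libraries. The negative values were -7.58 for AT5G37990, -7.27 for AT4G29200, -6.68 for GolS4, -4.98 for PLA-I{beta]2 and -4.70 for FTM1. AT5G37990 and GolS4 had 0 counts in the pklpif4-labelled libraries. PLA-I{beta]2 had 16 counts over the pif4-labelled libraries against 2 over the pklpif4-labelled ones, a ratio of 7.89 (95% interval 1.06 to 350.1), with 1.32 CPM in pkl and 0.292 in WT. With 1 library left out, the interaction of PLA-I{beta]2 ranged from -7.66 (without pklpif4 replicate 1) to -4.09 (without pif4 replicate 3). That of AT2G05580 was 14.58 and 19.33 without pkl replicates 1 and 3, that of AtMT4a 13.83 without WT replicate 3, and that of AT4G29200 -8.18 without WT replicate 2 and -6.58 without pif4 replicate 1. FTM1 was at 0.961 and 1.28 CPM in WT and pkl, 7.15 CPM in the pif4-labelled libraries and 0.363 CPM in the pklpif4-labelled ones.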

How the results depend on the processing

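For the 34 genes named for PKL and PIF4 or by size of change, 694 of the 698 log2 changes obtained under 21 alternatives kept direction and call, as did 193 of 193 interactions. The 4 that did not were of PLA-I{beta]2 (adjusted p = 0.0571 with halved counts, 0.223 without pif4 replicate 3, 0.0998 and 0.0740 without pklpif4 replicates 2 and 3). For the other 125 genes named from the lists, 2566 of 2589 values kept direction and call, and the changed calls stand beside the genes. With a library left out the sign turned only for genes that were not called, with ranges of -0.0703 to 0.0033 for HFR1, -0.132 to 0.0081 for HB-2, -0.0143 to 9.84e-05 for PSBR, -1.01 to 0.041 for HSP17.6II, -0.0198 to 0.063 for CLF and -0.0269 to 0.114 for EMF2. The number of genes called was 10964 with DESeq2, 11049 with limma, 11180 from the 6 libraries alone and 10124 to 11190 with a library left out. With the replicate number as a block, 11050 genes were called and 282 of 283 called list members kept their call. With a library left out, 263 to 282 of the 283 did. Same-numbered libraries did not deviate together (correlations -0.0206, 0.0123 and 0.0045), so the numbers do not pair them.

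The filter at a mean of 5 CPM over the 12 libraries, which tests fewer genes, left 331 genes at least 2-fold higher and 209 lower. Under it, members called higher were 8 for seed storage, 8 for oil, 5 for abscisic acid, 4 for gibberellin, 2 for salicylic acid, 6 for heat shock and 0 for flowering, and members called lower were 1 for gibberellin, 5 for auxin, 1 for salicylic acid, 1 for heat shock, 2 for flowering and 1 for meristem. The median of the root markers turned from 0.26 to -0.21 there. Library totals and the 6 libraries alone each called 1 flavonoid gene lower instead of 0. With a library left out, members called lower were 1 to 3 for gibberellin, 5 to 9 for auxin and 1 to 3 for heat shock, and members called higher were 1 to 4 for salicylic acid and 1 to 2 for glucosinolates. The shares of higher calls were 47.6% to 51.5% over the settings. Of called interactions, 48.1% were positive with TMM factors, 45.9% with no filter on low counts and 31.1% with library totals. Genes near 0 counts are limited by depth, and their fold is known only as a bound or a wide interval.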

Other observations

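Loci that the reference table does not list were at least 2-fold higher in the pklpif4-labelled libraries in 55 of 435 tested cases (12.6%), against 1167 of 21116 protein-coding genes (5.53%). Pseudogenes with transcripts were at least 2-fold higher in 18 of 169 cases and at least 2-fold lower in 18. None of the 69 tested chloroplast genes and 2 of the 41 tested mitochondrial genes were at least 2-fold higher, though poly(A) selection leaves out most organelle RNA. These counts come from edgeR's quasi-likelihood calls and were not compared by a test.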
